A study of Mus musculus with 6 samples.

Results

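The 8 Toll-like receptor genes Tlr1, Tlr2, Tlr3, Tlr4, Tlr5, Tlr7, Tlr8 and Tlr13 were read together with Cd14 and Myd88 in RNA from mouse aorta. These 10 genes were taken by name from a table of 55335 genes by their role in innate immunity, with earlier results of these data known. Not every Toll-like receptor is among them, and Tlr6, Tlr9, Tlr11 and Tlr12 are given apart. Aorta came from wild-type C57BL/6 mice of 2 ages. The young group comprised 3 libraries from mice of 6 weeks and the aged group 3 from mice of 6 months. All mice were described as male in the study's methods. No treatment or genetic change was applied to either group. Each library was taken as 1 mouse and was prepared with the SMARTER mRNA-Seq kit from whole vessel RNA. The levels therefore pool smooth muscle, endothelium, adventitia and resident immune cells, and fewer cells of a type cannot be told apart from less RNA per cell.

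Toll-like receptors are membrane proteins of innate immunity that bind microbial molecules and some molecules released by damaged tissue. One set sits on the cell surface and another in endosomes, where it meets nucleic acids. Most pass the signal through the adaptor Myd88 to interleukin-1 receptor associated kinases and on to NF-kappa B, whereas Tlr3 uses the adaptor Ticam1 instead. Cd14 has no signaling domain of its own and hands lipopolysaccharide to Tlr4 and its partner Ly96. In arteries these receptors are found on macrophages, and several of them also on endothelial cells, fibroblasts and smooth muscle.

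Levels are given as CPM, the count per 1000000 of the TMM-scaled library total, except where FPKM is named. Library totals ran from 31049632 to 45832185 counts. Among 16612 genes that passed the filter on low counts, edgeR's quasi-likelihood test called 0 genes between aged and young aorta at a Benjamini-Hochberg adjusted p below 0.05, while 923 genes were higher and 800 lower in aged aorta at an unadjusted p below 0.05. DESeq2 called 338 genes at an adjusted p below 0.05, 2.03% of those tested, and limma on FPKM called 0. Young replicate 1 had 14806 counts of Xist, a marker of female cells, against 7 to 24 in the other libraries, and 53 counts of the Y-linked gene Ddx3y against 1488 to 2117. Aged replicate 2 stood apart from the other aged libraries, with a first principal component score of -13.4 against 62.7 and 53.8, and its 8 adipocyte markers summed to 3579 CPM against 455 to 1667 in the rest. Aged replicate 3 stood apart in endothelial markers, whose sum was 1734 CPM against 359 to 517 in the rest. The share of counts from mitochondrial genes was 14.9% to 21.2% in young and 23.1% to 30.4% in aged aorta, without overlap. Of 6 smooth muscle markers 3 were lower in aged aorta at an unadjusted p below 0.05, against 4.82% of all genes, with none higher. That count was 2 without young replicate 1, 0 without aged replicate 1 and 1 with any other single library left out. The part of these library differences in the results below was not tested. Values without single libraries are given where they changed a call or moved a fold change by over 1.5 times.

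All 10 genes were detected and all 10 passed the filter on low counts. The limit was 0.298 CPM of the raw library total in at least 3 libraries. Tlr8 and Tlr13 reached it in 1 young and 3 aged libraries each, so their place among the tested genes rests on the aged group. Tlr1 reached it in 2 libraries of each age, and the remaining genes in all 6.

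Of the 10 genes, 3 had an unadjusted p below 0.05, namely Tlr5, Tlr13 and Cd14, and all 3 were higher in aged aorta. Tlr13 counts here although it passed the filter through its aged libraries, and with at least 10 counts required in every library it was 1 of 3 genes left untested and Cd14, Tlr5 and Tlr7 were past the threshold among the other 7. Of all genes tested, 5.56% were past this threshold in the higher direction and 4.82% in the lower. None of the 10 passed after Benjamini-Hochberg adjustment in edgeR, where the lowest adjusted p among them was 0.372. Fold changes were positive for 9 of the 10, against 52.1% of all genes, and their median was 1.10 on the log2 scale against 0.02 for all genes. With at least 10 counts required in every library, 6 of the 7 tested were positive, with a median of 0.54 against 0.02. In Tlr5 and Tlr7 every aged library lay above every young library, a separation in this direction that held for 7.74% of all genes. The opposite separation held for 8.78% of all genes and for none of the 10. Without aged replicate 2, Tlr2 and Tlr7 joined the other 3 at an unadjusted p below 0.05, which makes 5 of the 10 against 8.19% of all genes in this direction. These 5 include Tlr13, which with all libraries passed the filter through its aged group. That fit was not repeated with at least 10 counts required in every library.

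**Figure D1:**
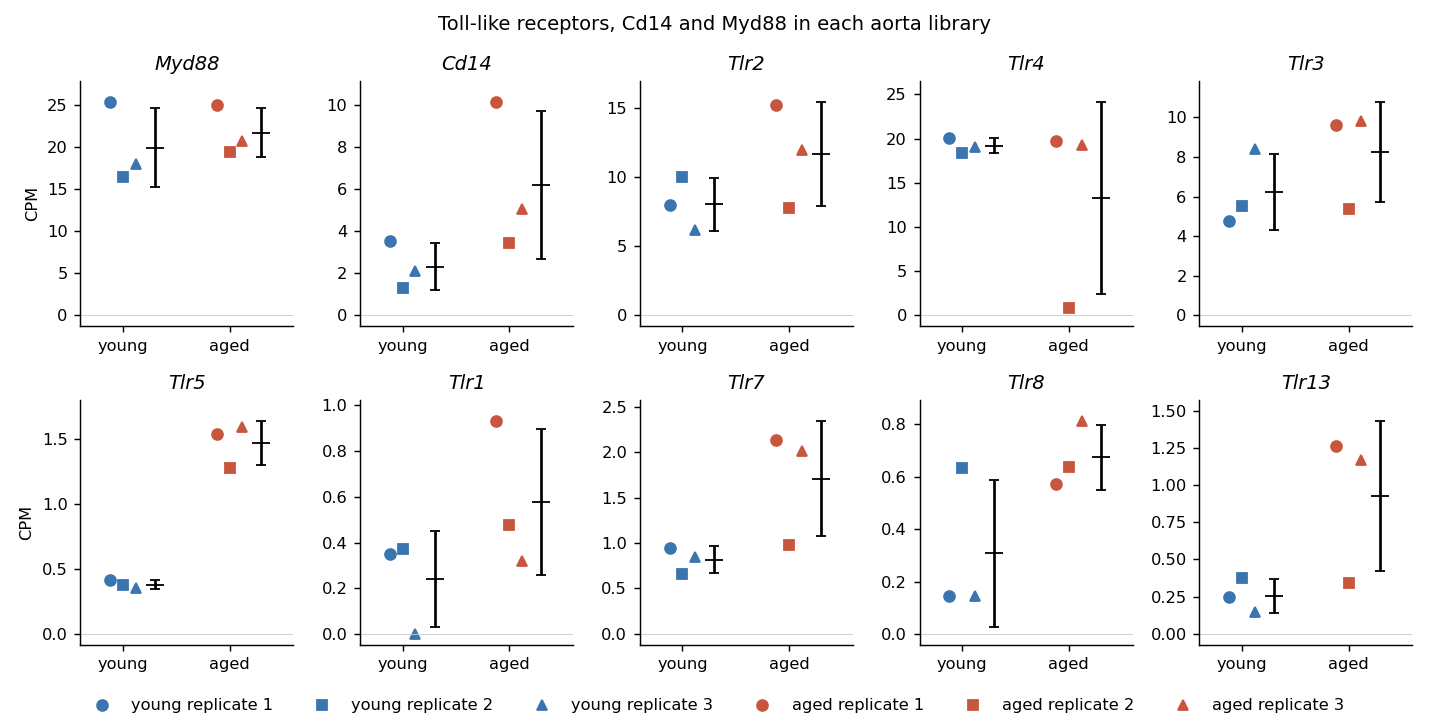
CPM of the 10 genes in each library, with 1 panel per gene, each axis including 0, and black bars giving the mean ± SD of the 3 libraries of an age. Tlr5 and Tlr7 show no overlap between young and aged aorta, and Tlr4 is near 19 CPM everywhere except in aged replicate 2, at 0.795.

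Ordered by FPKM, which divides by gene length and so lets genes be compared, Myd88 was the most abundant with 7.28 ± 1.24 (SD, n = 6). Tlr2 followed with 2.91 ± 0.845 FPKM (SD, n = 6), Tlr4 with 2.67 ± 1.27 (SD, n = 6) and Cd14 with 2.14 ± 1.49 (SD, n = 6). Tlr3 was at 1.24 ± 0.357 FPKM (SD, n = 6). A lower tier held Tlr7 at 0.268, Tlr5 at 0.160, Tlr8 at 0.114, Tlr13 at 0.113 and Tlr1 at 0.102 mean FPKM. Myd88 did not overlap Tlr2 in any library, and Tlr3, never below 0.860 FPKM, did not overlap Tlr7, never above 0.440. All other neighbors in this order overlapped, and in young libraries alone 6 genes had another rank, in aged libraries alone 4. Tlr8 ranked above Tlr5 in young aorta and Cd14 above Tlr4 in aged aorta. Tlr2 and Tlr4 in particular could not be ordered. Tlr4 had the higher mean in young aorta (3.36 ± 0.110 against 2.59 ± 0.609 FPKM, SD, n = 3). Tlr2 was the higher in every aged library, at 4.30, 2.20 and 3.20 against 3.02, 0.114 and 2.80 FPKM. Over all libraries the mean of Tlr2 came first, and without aged replicate 2 that of Tlr4 did. The 5 genes of the lower tier rested on few reads, from 0 to 71 counts per library.

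Tlr2 and Tlr1 encode surface receptors that pair with each other to bind bacterial lipoproteins. Tlr2 was at 7.99, 10 and 6.15 CPM in young replicates 1, 2 and 3 and at 15.3, 7.77 and 12 CPM in aged replicates 1, 2 and 3. Aged replicates 1 and 3 lay above all young ones and aged replicate 2 lay within the young range. The log2 fold change was 0.54 (SE 0.31, edgeR, adjusted p = 0.578), and without aged replicate 2 it was 0.76 with an unadjusted p of 0.0268 (edgeR, adjusted p = 0.309). It was 0.30 without aged replicate 1. Tlr1 was at 0.351, 0.374 and 0 CPM in young and at 0.933, 0.477 and 0.319 CPM in aged aorta. It had no count in young replicate 3, where 3 counts would have been 0.0874 CPM, and the groups overlapped. Its log2 fold change of 1.23 had an interval from -1.27 to 3.73 (edgeR, adjusted p = 0.696), and it was 0.67 without young replicate 3 and 0.70 without aged replicate 1.

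Part of Tlr1 cannot be told from its neighbor Tlr6, which pairs with Tlr2 as well. The genes lie 18.5 kb apart on chromosome 5 of GRCm38 (GENCODE M21), with Tlr1 at chr5:64924679-64933563 on the minus strand. Of the 50-base words in Tlr1 transcripts, 15.4% also occur in transcripts of other genes, of which Tlr6 shares the most. The longest shared stretch is 229 bases of coding sequence in 1 exon of each gene, at chr5:64925537-64925765 in Tlr1 and chr5:64953828-64954056 in Tlr6, both on the minus strand. It is shown because a read within it fits both genes equally, and how such reads were counted is not given in the sources used here:
Tlr1 and Tlr6, shared: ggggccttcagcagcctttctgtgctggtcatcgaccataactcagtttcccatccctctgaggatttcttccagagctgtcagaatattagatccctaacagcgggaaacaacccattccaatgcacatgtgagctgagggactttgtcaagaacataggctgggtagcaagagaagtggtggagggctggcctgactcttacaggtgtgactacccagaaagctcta
Tlr6 itself was at 1.05, 0.718 and 0.758 CPM in young and at 0.963, 0.822 and 0.672 CPM in aged aorta. These ranges overlapped, with a log2 fold change of -0.04 (SE 0.45, edgeR, adjusted p = 0.980).

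The promoter of Tlr2 holds a match to the NF-kappa B motif (GGGA, any base, TT, any base, CC), searched on both strands, 172 to 163 bases before the RefSeq start. Such a match occurs in 1.2% of the 32851 RefSeq windows of 250 bases before to 50 bases after a gene start (GRCm38.p6). Windows were found for 7 of the 10 genes, the exceptions being Tlr4, Tlr7 and Cd14. Tlr3 held a match to the same motif and the other 5 did not. The Tlr2 stretch upstream of the GENCODE exons, chr3:83841768-83841858 on the minus strand, is shown for this match, in capitals:
Tlr2: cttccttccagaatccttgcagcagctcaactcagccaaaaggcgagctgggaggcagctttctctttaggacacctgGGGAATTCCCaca

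Tlr5 encodes the receptor for bacterial flagellin and lies at chr1:182954788-182976044 on the plus strand. It was at 0.413, 0.374 and 0.350 CPM in young and at 1.53, 1.27 and 1.59 CPM in aged aorta. All 3 aged libraries were above all 3 young ones, and the highest upper bound of a young library (0.639 CPM, exact 95% Poisson interval, counting error only) was below the lowest lower bound of an aged library, 0.938. Tlr5 was 3.84-fold higher in aged aorta, a log2 fold change of 1.94 (SE 0.43, 95% interval 0.93 to 2.95). The unadjusted p was 0.00248 and did not pass adjustment (edgeR, adjusted p = 0.372). DESeq2 called it with an adjusted p of 0.0159, where 1.33% of all genes were called higher. It was the 1 gene called among the 7 to which DESeq2 gave an adjusted p, since Tlr1, Tlr8 and Tlr13 had none. With each library left out in turn, the log2 fold change stayed between 1.88 and 2.03 and the unadjusted p between 0.00767 and 0.0131 (edgeR, adjusted p from 0.195 to 0.765). The counts behind these values were 20, 13 and 12 in young and 51, 48 and 45 in aged libraries.

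The Tlr5 promoter is shown because this gene had the lowest p of the 10. None of the motifs searched on both strands (PU.1 as GAGGAA, AP-1 as TGANTCA, NF-kappa B as above and the interferon response motif, GAAA, any 2 bases, GAAA) was found in its window, which says only that these letters are not there. The stretch is chr1:182954538-182954787 on the plus strand, directly before the GENCODE start:
Tlr5: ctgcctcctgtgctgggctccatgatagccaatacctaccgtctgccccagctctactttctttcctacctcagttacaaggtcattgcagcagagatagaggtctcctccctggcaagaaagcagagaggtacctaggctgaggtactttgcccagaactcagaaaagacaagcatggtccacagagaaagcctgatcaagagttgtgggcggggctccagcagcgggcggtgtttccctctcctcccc

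Tlr4 encodes the lipopolysaccharide receptor and lies at chr4:66827584-66930284 on the plus strand. It was at 20.1, 18.4 and 19.1 CPM in young aorta and at 19.7, 0.795 and 19.3 CPM in aged aorta. The other 5 libraries lay in a narrow band and aged replicate 2 had 4.32% of the lowest of them, with 30 counts and an exact 95% Poisson interval of 0.536 to 1.14 CPM. The log2 fold change over all libraries was -0.53 with an interval from -2.59 to 1.52 (edgeR, adjusted p = 0.846). Without aged replicate 2 it was 0.027 with an interval from -0.38 to 0.43 (edgeR, adjusted p = 0.957), which does not reach the 2.03 of Tlr5 in the same fit. Without aged replicate 1 or 3 the log2 fold change of Tlr4 was -0.94 or -0.90. In aged replicate 2, 5 of 10950 genes were at 10% or less of the lowest other library (counting genes whose mean over the other 5 libraries reached 5 CPM). Those were Tlr4, Smim10l1, Igf2, Pou2f1 and Zfp74, a group picked out after its values were seen. In each of the other libraries between 0 and 9 genes were low in the same way. Both nearest neighbors of Tlr4 on chromosome 4 with at least 100 counts in total lacked this drop, as Astn2, 423 kb away, had 605, 602 and 364 counts in aged libraries and Gm11249, 1001 kb away, had 35, 22 and 21.

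Cd14, at chr18:36725067-36726798 on the minus strand, was at 3.51, 1.32 and 2.10 CPM in young and at 10.1, 3.42 and 5.03 CPM in aged aorta. Aged replicate 1 was the highest of all, and aged replicate 2 lay just below young replicate 1, so the groups overlapped by that pair. Mean levels were 2.31 ± 1.11 in young and 6.18 ± 3.49 CPM in aged aorta (SD, n = 3). The 2.67-fold difference, a log2 fold change of 1.41 (SE 0.52), had an unadjusted p of 0.0280 (edgeR, adjusted p = 0.437). Leaving out single libraries moved it between 0.86, without aged replicate 1, and 1.86, without young replicate 1. The unadjusted p stayed below 0.05 in 3 of these 6 fits, and reached 0.125 without aged replicate 1 (edgeR, adjusted p = 0.676), 0.0762 without young replicate 2 and 0.0715 without young replicate 3.

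The endosomal receptors Tlr7, Tlr8 and Tlr13 are all X-linked. Tlr7, a receptor for single-stranded RNA at chrX:167304929-167330558, was at 0.949, 0.661 and 0.845 CPM in young and at 2.14, 0.981 and 2.02 CPM in aged aorta. Aged replicate 2 exceeded young replicate 1 only narrowly, and their counting intervals (0.690 to 1.35 and 0.695 to 1.27 CPM) overlapped. The log2 fold change was 1.06 (SE 0.46, unadjusted p = 0.0546, edgeR, adjusted p = 0.490), and 1.34 without aged replicate 2 (unadjusted p = 0.0230, edgeR, adjusted p = 0.295). Tlr8 lies 40.6 kb from Tlr7 and encodes a related receptor. It was at 0.144, 0.632 and 0.146 CPM in young and at 0.572, 0.636 and 0.814 CPM in aged aorta. Young replicate 2 was within the aged range and the other young libraries were below it, on 5 to 24 counts per library. The log2 fold change of Tlr8 was 1.13 (SE 0.74, edgeR, adjusted p = 0.615), and 2.20 without young replicate 2 (unadjusted p = 0.0189, edgeR, adjusted p = 0.657).

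Tlr13 encodes a receptor for bacterial ribosomal RNA that humans lack, and lies at chrX:106143204-106160493 on the plus strand. It was at 0.248, 0.374 and 0.146 CPM in young and at 1.26, 0.345 and 1.17 CPM in aged aorta. Aged replicates 1 and 3 stood above every young library and aged replicate 2 lay inside the young range. The 3.57-fold difference, a log2 fold change of 1.84 (SE 0.70), had an unadjusted p of 0.0327 (edgeR, adjusted p = 0.446). It stayed between 1.54 and 2.24 with single libraries left out. The unadjusted p was below 0.05 in 2 of those 6 fits, namely without young replicate 2 and without aged replicate 2, and was 0.0825 without young replicate 1, 0.0956 without young replicate 3, 0.114 without aged replicate 1 and 0.103 without aged replicate 3. In young replicate 1, the library with Xist, Tlr7 was the highest of the young libraries, Tlr8 was level with young replicate 3 and Tlr13 was between the others. Without that library the log2 fold changes were 1.19 for Tlr7, 0.79 for Tlr8 and 1.82 for Tlr13.

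Tlr13, Tlr8 and Tlr1 each held the PU.1 motif GAGGAA, PU.1 being a transcription factor of myeloid cells, so that 3 of the 7 genes with a window had it. Across all windows the share was 28.3%, and among 14 macrophage markers with a window it was found in 8. The Tlr13 stretch chrX:106143025-106143203 on the plus strand is shown with this match in capitals, 83 to 78 bases before the RefSeq start:
Tlr13: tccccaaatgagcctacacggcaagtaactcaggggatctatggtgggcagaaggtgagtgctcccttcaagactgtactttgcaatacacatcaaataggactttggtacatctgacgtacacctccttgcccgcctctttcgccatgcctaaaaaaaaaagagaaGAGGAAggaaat

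Tlr3, the endosomal receptor for double-stranded RNA at chr8:45395665-45411080, was at 4.75, 5.52 and 8.42 CPM in young and at 9.60, 5.35 and 9.80 CPM in aged aorta. Aged replicate 2 was again within the young range and the other aged libraries were above it. The log2 fold change was 0.41 (SE 0.34, 95% interval -0.38 to 1.19, edgeR, adjusted p = 0.684). It ranged from 0.25 without young replicate 1 to 0.64 without aged replicate 2 and 0.69 without young replicate 3, and was 0.27 without aged replicate 3. No fit with a library left out brought the unadjusted p of Tlr3 below 0.0694 (edgeR, adjusted p = 0.401).

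Myd88, at chr9:119335934-119341411 on the minus strand, was at 25.3, 16.4 and 18.0 CPM in young and at 24.9, 19.4 and 20.6 CPM in aged aorta. The groups overlapped fully, with replicate 1 the highest in each. Its log2 fold change was 0.12 (SE 0.21, 95% interval -0.38 to 0.63, edgeR, adjusted p = 0.855), and limma on FPKM gave -0.072 or -0.080 with a pseudocount of 1 or 0.1. With single libraries left out it ranged from 0.0074, without aged replicate 1, to 0.34, without young replicate 1 (unadjusted p = 0.130, edgeR, adjusted p = 0.531). It was 0.010 without young replicate 2, 0.063 without young replicate 3 and 0.20 without aged replicate 2. Myd88 overlaps Acaa1a on the opposite strand and lies within the span of Slc22a14 on the same strand. Of the 50-base words of Myd88, 7.42% also occur in transcripts of other genes, of which Acaa1a shares the most. Slc22a14 had 0 to 14 counts per library. Acaa1a had 1808 to 3058 counts per library, and whether reads were assigned by strand is not given in the sources used here.

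**Figure D2:**
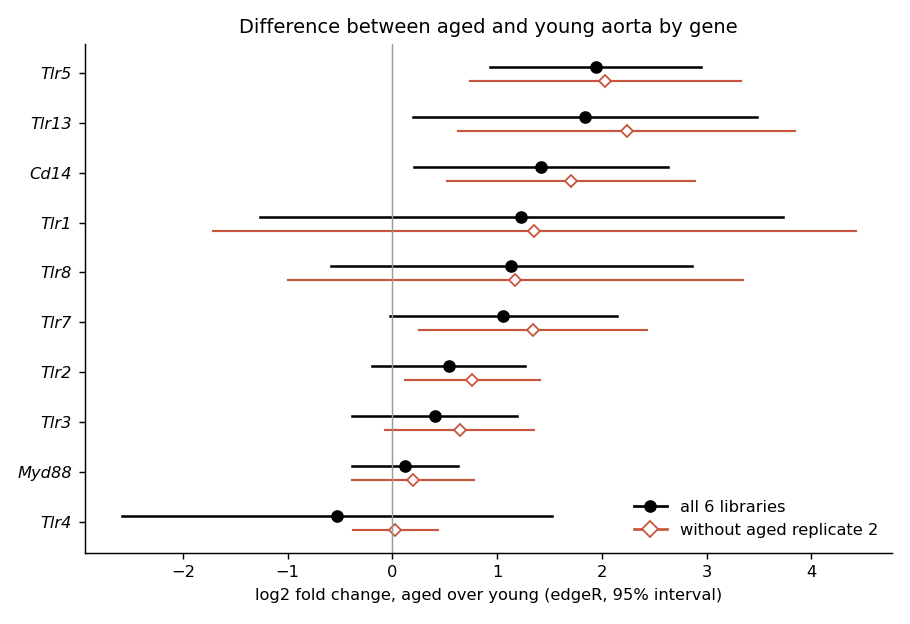
edgeR log2 fold changes (aged over young, on the horizontal axis) with 95% intervals, for all 6 libraries and without aged replicate 2. The intervals of Tlr5, Tlr13 and Cd14 lie above 0 in both fits, and the interval of Tlr4 narrows from -2.59 to 1.52 down to -0.38 to 0.43.

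The 3 remaining Toll-like receptors were scarce. Tlr9 had 3, 7 and 7 counts in young and 9, 3 and 9 in aged libraries. Tlr12 had 0, 19 and 11 counts in young and 0, 0 and 8 in aged libraries. Tlr11 had no count in any library, where 3 counts would have been 0.0619 to 0.106 CPM. None of these passed the filter, so no test was made.

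Macrophage markers were higher in aged aorta too, with aged replicate 2 the lowest of the aged libraries, as it was for all of the 10 genes except Tlr1 and Tlr8. All 20 markers were tested, 14 were higher at an unadjusted p below 0.05 (5.56% of all genes) and none was lower, and their median log2 fold change was 1.38. The count was 7 without aged replicate 1, 9 with limma on FPKM, and 10 to 15 with any other single library left out. Their sum was 237 to 257 CPM in young aorta, and 637, 340 and 480 CPM in aged replicates 1, 2 and 3. None of the markers was at 0 in either group. The mannose receptor Mrc1 (log2 fold change 1.38, SE 0.25) and the growth factor receptor Csf1r (1.09, SE 0.30) were among them. Without aged replicate 2 both passed adjustment (edgeR, adjusted p = 0.0344 and 0.0454). The macrophage part in the results for the receptors was not tested. Neutrophil markers summed to 0.475 to 2.36 CPM in young and 3.15 to 5.41 CPM in aged aorta, and 3 of the 11 were tested. Csf3r (log2 fold change 1.45, SE 0.58) was higher at an unadjusted p below 0.05, a call kept in 1 of 6 fits that left out a library (young replicate 2), and S100a9 was at 1.69 (SE 0.77), or 2.89 and past the threshold without young replicate 3. Ngp had 0 counts in young and 23, 10 and 20 counts in aged libraries, while the defining markers Ly6g and Mmp8 were at 0 counts in all libraries. Fibroblast markers summed to 3669 to 5682 CPM in young aorta, and to 9567, 3277 and 6965 CPM in aged replicates 1, 2 and 3, with 4 of 7 markers higher at an unadjusted p below 0.05 (2 of them when aged replicate 1 or 3, or young replicate 1 or 2, was left out).

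Levels were also taken relative to the mean log2 CPM of the 20 macrophage markers in the same library. On this scale Myd88, Tlr4 and Tlr2 were lower in every aged library and the other genes overlapped between the ages. That mean was itself above every young library in aged aorta, at 3.78, 2.37 and 3.32 against 2.36, 1.82 and 1.98. A gene with a steady CPM therefore tends to come out lower in aged aorta on this scale. The share of all genes lower in every aged library was not computed, so the lower values of Myd88, Tlr4 and Tlr2 are not read as particular to them. Tlr7 stood at -2.35, -2.30 and -2.13 in young and at -2.65, -2.32 and -2.27 in aged aorta, so the groups overlapped. Cd14 stood at -0.52, -1.35 and -0.87 in young and at -0.44, -0.58 and -0.98 in aged aorta, again with overlap. Myd88 was at 2.31, 2.23 and 2.20 in young and at 0.86, 1.91 and 1.05 in aged aorta, all 3 aged values being lower. Tlr2 was also lower on this scale in aged aorta, at 0.15, 0.59 and 0.27 against 0.65, 1.51 and 0.65. Tlr4 was at 1.97, 2.39 and 2.28 in young and at 0.52, -2.61 and 0.95 in aged aorta. The remaining genes overlapped, Tlr3 lying between -0.51 and 1.10, Tlr13 between -4.29 and -3.03, Tlr8 between -4.68 and -2.36 and Tlr1 between -6.15 and -3.04. Tlr5 was at -3.45, -3.04 and -3.28 in young and at -3.11, -1.97 and -2.60 in aged aorta, where aged replicate 1 lay within the young range. These differences are descriptions and were not tested.

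**Figure D3:**
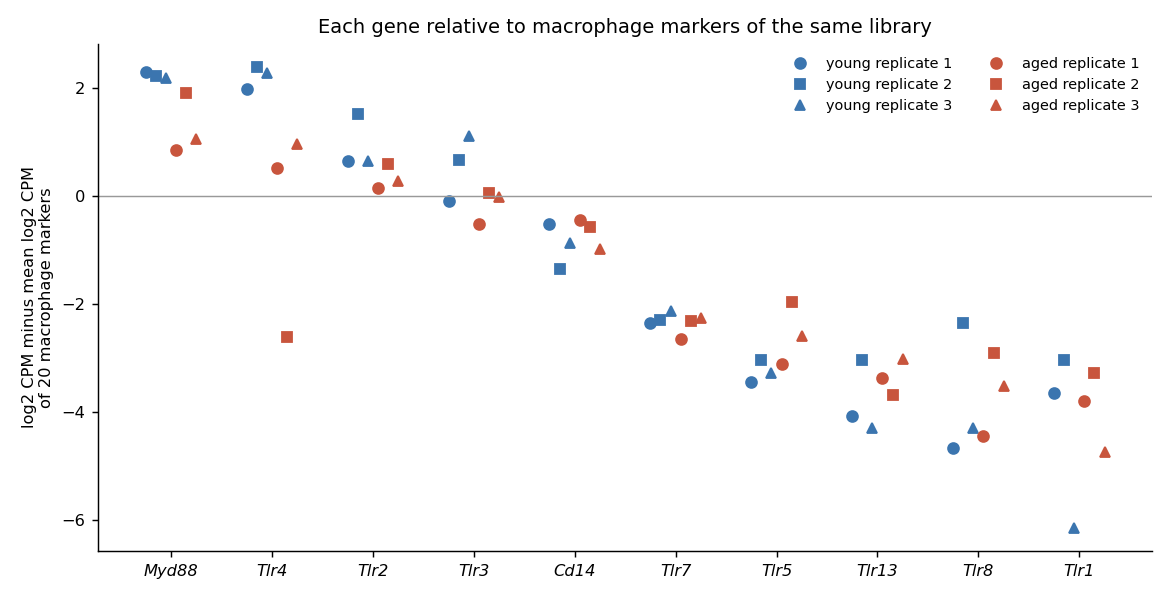
The vertical axis gives log2 CPM of each gene minus the mean log2 CPM of 20 macrophage markers in the same library, by age. Tlr7 and Cd14 overlap between young and aged aorta, whereas Myd88 lies between 2.20 and 2.31 in young and between 0.86 and 1.91 in aged aorta.

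The other genes of the pathway were read from lists ordered by role. Of 98 such genes 80 were tested, 9 were higher (5.56% of all genes) and 5 lower (4.82% of all genes) in aged aorta at an unadjusted p below 0.05, and their median log2 fold change was 0.06. This split depended on the scaling and on 1 library, being 3 higher and 11 lower with limma on log2(FPKM + 1), 4 and 11 with log2(FPKM + 0.1), and 18 and 2 without aged replicate 2. The same shares of all genes apply to each list below, and the 1 or 2 genes called in a direction among adaptors and kinases or negative regulators are near that background. Among 11 co-receptors and chaperones 1 was past the threshold. This was Lbp, which carries lipopolysaccharide to Cd14, at 3.72, 8.02 and 6.21 CPM in young and at 37.1, 5.72 and 27.1 CPM in aged aorta. As with Tlr13, aged replicate 2 lay in the young range, and the log2 fold change was 1.96 (SE 0.64, unadjusted p = 0.0172, edgeR, adjusted p = 0.400). The unadjusted p of Lbp was 0.0654 without aged replicate 1 and 0.0584 without young replicate 1 (edgeR). Without aged replicate 2, 4 of the 11 were higher past the threshold, against 8.19% of all genes in that fit. All 24 adaptors and kinases were tested, of which none was higher and 2 were lower. These were Ikbkg, the regulatory subunit of the I kappa B kinase complex, with a log2 fold change of -1.60 (SE 0.37), and the ubiquitin ligase Traf3 with -1.71 (SE 0.59). Traf3 was at 22.8 CPM in young replicate 2 against 2.71 to 7.04 in the other libraries, and its log2 fold change was -0.78 without that library, no longer past the threshold, as also without aged replicate 1 or 2. Ikbkg overlaps G6pdx in the annotation. None of 8 transcription factors was past the threshold with all 6 libraries in edgeR, and 1 was higher past it in DESeq2. Irf5 was higher past it without young replicate 1 (unadjusted p = 0.0121, edgeR, adjusted p = 0.397). Irf7 was so without aged replicate 2 (unadjusted p = 0.00852, edgeR, adjusted p = 0.206).

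Of 13 negative regulators 1 was higher and 1 lower. Without aged replicate 2, 3 were higher, Irak3 among them (unadjusted p = 0.00645, edgeR, adjusted p = 0.180). Without young replicate 2, 2 were lower, Dusp1 among them (unadjusted p = 0.0325, edgeR, adjusted p = 0.657). Nfkbia, the NF-kappa B inhibitor that is also a target of it, was at 38.5 ± 9.72 in young and 85.8 ± 32.6 CPM in aged aorta (SD, n = 3), with no overlap. Atf3, a repressor of cytokine genes, was at 70.5 ± 20.9 and 20.4 ± 13.0 CPM (SD, n = 3), also with no overlap. Of 22 genes that the pathway is known to induce, 11 were tested, 6 were higher and 1, Nfkbiz, was lower, against 5.56% and 4.82% of all genes, and their median log2 fold change was 1.26. With limma on log2(FPKM + 1) 1 was higher, and without aged replicate 3 it was 3. With at least 10 counts required in every library, 9 were tested, 5 were higher and 1 was lower. Nfkbiz lost its call in 4 of 6 fits that left out 1 library, the exceptions being young replicate 2 and aged replicate 1. Cd80, a costimulatory ligand of antigen presenting cells, had a log2 fold change of 1.58 (SE 0.44), the adhesion molecule Icam1 1.34 (SE 0.42) and Vcam1 1.26 (SE 0.39). Icam1 and Vcam1 were highest in aged replicate 3, the library with high endothelial markers, at 40.4 and 149 CPM, and without it their log2 fold changes were 0.90, not past the threshold, and 0.74, still past it. Il1b, the cytokine interleukin-1 beta, was at 0.0825, 0.0575 and 0.321 CPM in young and at 0.421, 0.451 and 1.42 CPM in aged aorta, with no overlap. Young replicates 1 and 2 lay under the filter limit of 0.298 CPM. As for Tlr8 and Tlr13, the place of Il1b among the tested genes rests on the aged group. Il1b had a log2 fold change of 2.30 (SE 0.89, unadjusted p = 0.0354, edgeR, adjusted p = 0.448), or 1.51 without aged replicate 3. It was not past the threshold without that library or young replicate 1 or 2. The cytokine genes Tnf, Il6, Il12b and Ifnb1 did not pass the filter, with 0 to 27 counts per library. Of 10 genes for proteins described as endogenous ligands 9 were tested, with the matrix proteoglycan gene Dcn higher at 1.45 (SE 0.53) and Tnc, the gene of tenascin C, lower at -0.87 (SE 0.34). With single libraries left out, Tnc was past the threshold in 1 of 6 fits, with -0.50 without young replicate 3, and Dcn in 2 of 6. Dcn is a fibroblast marker as well. None of 3 tested interleukin-1 family receptors that use Myd88 was past the threshold. With single libraries left out, 3 to 5 of this list were tested. In those fits 1 was higher past the threshold, except without aged replicate 3, where none was. With all 6 libraries, no gene named here from these lists passed the adjusted threshold in edgeR. Without aged replicate 2, where 110 genes (0.642% of those tested) passed it, Lbp, Icam1 and Dcn were past it (edgeR, adjusted p = 0.0465, 0.0437 and 0.0488).

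**Figure D4:**
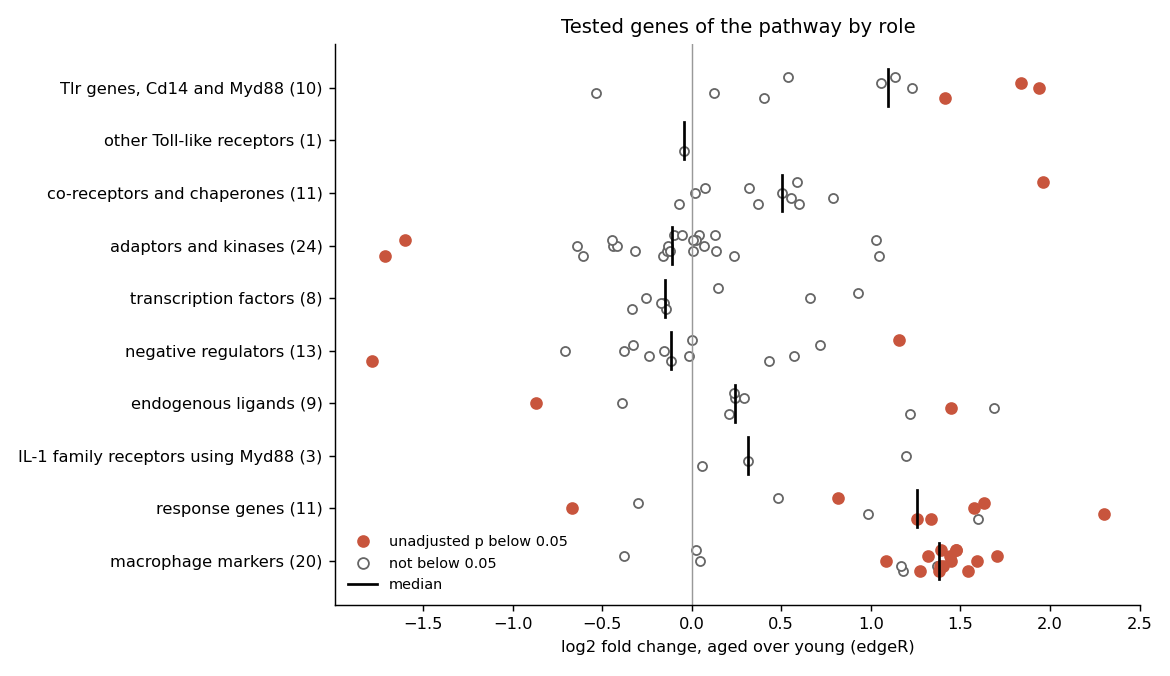
Horizontal position gives the edgeR log2 fold change, aged over young, of the tested genes of each role, with the number tested in brackets, filled points for an unadjusted p below 0.05 and black bars at the median. The medians of the 10 members (1.10), the response genes (1.26) and the macrophage markers (1.38) lie to the right of 0, and that of the adaptors and kinases at -0.11. With at least 10 counts required in every library, not drawn here, the first 3 medians were 0.54, 0.98 and 1.39.

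The genes whose levels followed a member most closely were found from the root mean square difference of log2 CPM over the 6 libraries, each gene centered on its own mean. Nearest to Cd14 were Isg15 (0.149), an interferon-induced ubiquitin-like protein, and Ctss (0.182), a lysosomal protease of antigen presenting cells. The median over all tested genes was 0.975 for Cd14, and across the members it ran from 0.419 for Myd88 to 1.72 for Tlr4. Distances of different members are therefore not on a common footing. Tlr3 was nearest to the leukocyte integrin Itgb2 (0.0701) and Stambpl1 (0.0772), and Tlr7 to the monooxygenase Cyp1b1 (0.118) and Nkd2 (0.127). Tlr13 was nearest to Gfpt2 (0.138) and Htra4 (0.164), Tlr5 to Gnrh1 (0.175) and Nme4 (0.187), and Tlr2 to Nsl1 (0.0983) and Marcksl1 (0.118). Gnrh1, Nme4 and Nsl1 rested on few reads, from 5 to 44 counts per library. Nearest to Tlr8 were Clec2e (0.144), with 4 to 17 counts per library, and Tmcc3 (0.173). Tlr4 was nearest to Smim10l1 (0.130), which was at 2.46 CPM in aged replicate 2 against 55.8 to 70.7 elsewhere. Next came Gm7729 (0.198), with 0 counts in aged replicate 2 and 40 to 58 elsewhere. Myd88 was nearest to Cyb5r3 (0.0452) and Pym1 (0.0521). For Tlr1 the nearest genes, Has2 (0.334) and Mab21l2 (0.356), had 0 counts in young replicate 3 as Tlr1 did.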

How the data were processed

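RNA from 6 aortas (3 young, 3 aged) was sequenced single-ended. The authors deposited whole-number counts per gene, not normalized, and FPKM, which followed the counts within each gene (SD of 0.00385 on the log2 scale after scaling, 12096 genes with at least 50 counts). The build mm10 is named in the submitters' processing notes, and the aligner, counter and annotation are not given in the sources used here. Total counts were 31049632 to 45832185 per library. A floor is 3 counts, and Poisson intervals (95%) and floors cover counting error only. Separate libraries were taken as separate mice.

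Counts were filtered with edgeR 4.0.16 in R 4.3.3 (filterByExpr, minimum count 10, minimum total 15), normalized by TMM and tested by the quasi-likelihood F test without covariates, with Benjamini-Hochberg adjustment over 16612 genes and a threshold of 0.05. The SE is the absolute log2 fold change divided by the square root of F. Tests ran on simulated data first. Likeness used log2 CPM with a prior count of 2. Alternatives were RLE factors, no filter, at least 10 counts in every library, robust fitting, DESeq2 1.42.0, limma 3.58.1 on log2(FPKM + 1) or log2(FPKM + 0.1), the replicate number as a block and each library left out. Leaving out young replicate 1 and aged replicate 2 together was chosen after seeing the data.

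The members and lists were chosen with earlier results of these data known. Named were all members, the other 4 Toll-like receptors, the 2 nearest genes by likeness, and of each list genes among the 3 lowest p or the 2 highest FPKM. The untested cytokine genes, Il1b, 3 neutrophil markers, genes overlapping a named gene and the neighbors of Tlr4 were added to these once the values had been read. Coordinates and 50-base words come from GENCODE M21 (GRCm38), and promoters from RefSeq (GRCm38.p6).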

Additional observations from a re-analysis of the deposited data

How the results depend on the processing

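Over all alternatives, 126 of 147 log2 fold changes of members kept their direction and their side of an unadjusted p of 0.05, while 11 were no longer past it, 6 newly passed it and 4 changed sign. The changes of sign were Myd88, at -0.072 and -0.080 with limma on log2(FPKM + 1) and log2(FPKM + 0.1), and Tlr4, at 0.027 without aged replicate 2 (from -0.94 to 0.027 with single libraries left out) and 0.064 without both young replicate 1 and aged replicate 2. Tlr5 stayed past that p in all 15 alternatives, and Cd14 in 11 of 15. At an adjusted p below 0.05, 338 genes were called by DESeq2, and 0 (lowest) to 110 (highest, without aged replicate 2) with single libraries left out. Of the members, 1 was past an unadjusted p of 0.05 with limma on log2(FPKM + 1), and 1 (without young replicate 3 or aged replicate 1) to 5 (without aged replicate 2) with single libraries left out, against 3 with all. Of the other pathway genes 9 (without aged replicate 1 or aged replicate 3) to 20 (without aged replicate 2) were past it, against 14, and the 20 were 18 higher and 2 lower against 9 and 5. With limma on log2(FPKM + 1) the split of all genes at that p turned from 923 higher and 800 lower to 418 higher and 2249 lower, with a median log2 fold change of -0.12, or -0.19 for a pseudocount of 0.1, and changes of members on that scale are relative to it. With the replicate number as a block, 0 genes passed adjustment, 2 members (Tlr5 and Cd14) and 12 other pathway genes were past an unadjusted p of 0.05. The labels do not say that a number marks a pair. Deviations of same-numbered libraries correlated at 0.0786, 0.117 and 0.0957 across genes, and each library correlated best with its own number, a hint from the data and not the design. Receptors with under 100 counts per library (Tlr1, Tlr5, Tlr7, Tlr8 and Tlr13) are limited by depth.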
